A study of Homo sapiens with 18 samples.

Results

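The genes examined here were the human heat shock proteins and the J-domain co-chaperones that work with them: 76 of the 57500 genes in the deposited table. They were chosen by gene name, as the HSPA, HSPB, HSPD, HSPE, HSPH, HSP90A, HSP90B, DNAJA, DNAJB and DNAJC genes without names of the pseudogene form (a P and digits at the end), together with the heat shock factors HSF1 and HSF2, the co-chaperone BAG3 and the HSP70 regulator HSPBP1. HSPA7 and DNAJB3, which the name rule kept, are annotated as pseudogenes. Poly-A RNA had been sequenced from 3 established human lines of non-small cell lung cancer, SNU2535, NCI-H3122 and NCI-H2228, which carry the EML4-ALK fusion and are labelled WT for genotype. Each line received DMSO, the solvent control, or 3 µM TRI-611 for 3 h, and all 6 groups had been grown in the same serum-containing RPMI medium and plated the day before. By its title, the series concerns TRI-611 as a glue-type degrader, a small molecule that brings ALK, a receptor tyrosine kinase, to a ubiquitin ligase for destruction. Each group held 3 libraries, numbered by a batch label that is shared across groups. Whether the 3 libraries are separate cultures is not in the labels; p-values thus reflect only the spread between these libraries, which may be technical. In such bulk RNA, fewer cells of a kind and less RNA per cell cannot be told apart. The comparisons asked how chaperone RNA changed with TRI-611 in each line and how its level differed between the untreated lines.

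Heat shock proteins are chaperones that bind unfolded or partly folded proteins and either help them fold or hand them to degradation. HSP70 proteins cycle on and off their clients with ATP: J-domain proteins (the DNAJ families) bring clients and start ATP hydrolysis, and nucleotide exchange factors such as BAG3 and HSPH1 release them. HSP90 finishes the folding of many kinases, among them fusion kinases such as EML4-ALK. HSF1, the main factor of the heat shock response, binds repeats of the letters nGAAn in the promoters of the inducible members when unfolded proteins accumulate, and members that work in the endoplasmic reticulum answer instead to the unfolded protein response.

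The promoter sites that such factors are known to read are shown as a description. Whether these sites relate to the direction of a member's change was not tested. RefSeq (GRCh38.p14) held promoters, from 250 bases before to 50 bases after a start, for 66 of the 76 members, 88 promoters in all. The heat shock element was searched on both strands as 3 units, GAA, TTC and GAA (or TTC, GAA and TTC on the other strand), each 2 bases apart, and was found in 7 of the 88 promoters (7.95%), against 0.49% of all 35116 promoters. They belong to DNAJA1, DNAJB6, HSP90AA1, HSP90AB1, HSPA6, HSPA8 and HSPD1. A shorter pair, GAANNTTC or TTCNNGAA, stood in 26.1% of the members' promoters and in 13.5% of all promoters, and each 13-base element also counts as a pair since it contains one. The ER stress element, CCAAT and CCACG with 9 bases between them, stood in 2 members' promoters (2.27%), those of HSPA5 and HSP90B1, against 0.0769% of all. Of the 7 promoters of members that fell in all 3 lines (below), 1 held the 13-base element (HSPA8) and 3 held the pair. Those with the pair belong to DNAJB1 and HSPA8 alone. DNAJB1 has several of the 7 promoters, and HSPA14 has none in RefSeq. Of the 5 promoters of members that rose in all 3 lines, 1 held the pair, a promoter of DNAJB4. A match describes letters and is not evidence of binding, and a missing match says only that these letters are not in the window. The sites follow as 30-base stretches with the element in capitals, each read 5′ to 3′ on the strand of its gene. In the HSPD1 stretch 2 elements overlap, and only the first is in capitals.
HSPA8 (chr11:123062171-123062200, minus strand, 13-base element): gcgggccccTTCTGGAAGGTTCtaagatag
HSPA8 (chr11:123062346-123062375, minus strand, 13-base element): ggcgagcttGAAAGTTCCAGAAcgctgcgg
HSP90AA1 (chr14:102087112-102087141, minus strand, 13-base element): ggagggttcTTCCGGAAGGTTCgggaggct
HSP90AB1 (chr6:44247822-44247851, plus strand, 13-base element): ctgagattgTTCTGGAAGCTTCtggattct
HSPA6 (chr1:161524457-161524486, plus strand, 13-base element): gcggaaaggTTCGCGAAAGTTCgcggcggc
HSPD1 (chr2:197500061-197500090, minus strand, 13-base element): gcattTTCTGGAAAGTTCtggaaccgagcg
DNAJB1 (chr19:14518456-14518485, minus strand, 8-base pair): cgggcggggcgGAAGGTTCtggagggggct
DNAJB1 (chr19:14518426-14518455, minus strand, 8-base pair): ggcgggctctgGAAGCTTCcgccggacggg
DNAJB4 (chr1:78004830-78004859, plus strand, 8-base pair): agcatttgctgTTCTAGAAagtacagagac
HSPA1A (chr6:31815426-31815455, plus strand, 8-base pair): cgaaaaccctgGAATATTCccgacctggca
HSPA1B (chr6:31827622-31827651, plus strand, 8-base pair): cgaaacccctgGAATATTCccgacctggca
HSPA5 (chr9:125241386-125241415, minus strand, ER stress element): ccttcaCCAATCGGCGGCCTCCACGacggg
HSP90B1 (chr12:103930210-103930239, plus strand, ER stress element): ccctgaCCAATCGGAAGGAGCCACGcttcg

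For 6 members described in full below, the longest stretch outside annotated exons in the 250 bases before a start is shown, with any 8-base pair in capitals. The stretches of DNAJB1, DNAJB4 and DNAJB5 lie within the bounds of the annotated gene. In the DNAJB1 promoter shown, pairs lie 77 and 47 bases before the start, and another of its promoters holds 1 more just after its own start; the BAG3 and DNAJB5 stretches carry none of the 3 elements, and HSPA1A and HSPA1B are neighbours on chromosome 6.
DNAJB1 (chr19:14518421-14518647, minus strand): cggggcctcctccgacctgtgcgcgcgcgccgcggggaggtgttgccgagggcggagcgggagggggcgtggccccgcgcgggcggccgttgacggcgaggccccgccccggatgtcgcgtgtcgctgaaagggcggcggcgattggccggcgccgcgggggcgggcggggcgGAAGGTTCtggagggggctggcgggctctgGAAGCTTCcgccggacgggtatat
BAG3 (chr10:119651130-119651369, plus strand): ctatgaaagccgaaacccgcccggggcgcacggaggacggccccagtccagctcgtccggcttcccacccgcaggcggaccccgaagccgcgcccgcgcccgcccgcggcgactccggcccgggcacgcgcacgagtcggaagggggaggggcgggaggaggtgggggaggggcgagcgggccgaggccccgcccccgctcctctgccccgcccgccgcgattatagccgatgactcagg
DNAJB4 (chr1:78004689-78004853, plus strand): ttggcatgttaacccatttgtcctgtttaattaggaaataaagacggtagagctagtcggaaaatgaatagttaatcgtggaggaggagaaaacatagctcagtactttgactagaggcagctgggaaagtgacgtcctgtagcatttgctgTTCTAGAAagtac
DNAJB5 (chr9:34990040-34990221, plus strand): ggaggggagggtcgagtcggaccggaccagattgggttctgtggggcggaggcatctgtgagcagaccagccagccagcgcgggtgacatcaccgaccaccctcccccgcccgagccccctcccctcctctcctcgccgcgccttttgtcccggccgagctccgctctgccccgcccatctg
HSPA1A (chr6:31815293-31815463, plus strand): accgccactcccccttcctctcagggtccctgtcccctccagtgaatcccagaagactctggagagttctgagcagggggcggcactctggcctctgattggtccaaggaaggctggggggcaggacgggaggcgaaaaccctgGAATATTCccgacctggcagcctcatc
HSPA1B (chr6:31827488-31827734, plus strand): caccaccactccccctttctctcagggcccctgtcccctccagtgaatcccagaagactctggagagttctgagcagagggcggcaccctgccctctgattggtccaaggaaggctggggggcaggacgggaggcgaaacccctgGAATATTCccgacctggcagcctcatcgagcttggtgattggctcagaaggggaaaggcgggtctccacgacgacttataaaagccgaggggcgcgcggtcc

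Values are TPM, a transcript abundance that is corrected for gene length and sums to the same total in each library; the number of reads is unknown, so no counting interval can be given. The keratins KRT8, KRT18 and KRT19 and EPCAM, markers of the labelled epithelial tumour cells, were at 117 TPM or more in each library, and ALK lay between 10.7 and 26.6 TPM. CDH1, the epithelial cadherin, was at 5.56 to 6.36 TPM in NCI-H2228 and at 165 TPM or more in the other lines. Of 8 markers of leukocytes, endothelium and fibroblasts, 7 stayed under 6.71 TPM, and COL1A1 reached 393 TPM in NCI-H2228. Summed over the 8, these markers lay at 146 to 178 TPM in SNU2535, 13.2 to 16.8 in NCI-H3122 and 367 to 400 in NCI-H2228. Most of each sum was COL1A1, at 131 to 164 TPM in SNU2535, 10.8 to 14.1 in NCI-H3122 and 361 to 393 in NCI-H2228. A list of 10 genes driven by the MAPK pathway, on which ALK signals, was chosen with earlier results of these data known, so it is no independent check. Of it, 10, 9 and 9 genes fell in SNU2535, NCI-H3122 and NCI-H2228, where 18.1%, 13.4% and 6.4% of all genes fell. The median log2 difference was -1.76, -1.29 and -0.85, beside -0.02, 0.05 and 0.01 over all genes. DUSP6, the ERK phosphatase of that list, went from 27.2 ± 1.73 to 0.488 ± 0.0570 TPM in SNU2535, from 243 ± 6.59 to 11.0 ± 1.74 in NCI-H3122 and from 15.2 ± 0.931 to 3.47 ± 0.275 in NCI-H2228 (SD, n = 3).

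After TRI-611, more members fell than rose in SNU2535 and NCI-H3122, and also in NCI-H2228, where the balance was lost with no filter on low values (5 higher, 5 lower) and turned with plain empirical Bayes (5 higher, 4 lower). Over all genes tested, more also fell than rose in SNU2535 (18.1% and 10.7%) and NCI-H2228 (6.4% and 4.8%). In NCI-H3122 fewer of all genes fell than rose (13.4% and 20.6%), so the members' balance differed in direction from that of all genes there alone. The members that fell in all 3 lines were the HSP40 gene DNAJB1, the constitutive HSP70 gene HSPA8, the HSP70 relatives HSPA4 and HSPA14, the ribosome-bound co-chaperone DNAJC2 and BAG3. Those that rose in all 3 were the co-chaperones DNAJB4 and DNAJB2 and the factor HSF2. The stress-inducible HSP70 genes HSPA1A and HSPA1B rose in NCI-H3122 and NCI-H2228, and the small heat shock protein HSPB1 rose in NCI-H3122. Most changes were small: the called members with a change of at least 1 on the log2 scale were DNAJB4 in SNU2535 (1.96% of all genes there) and DNAJB4 and DNAJB5 in NCI-H3122 (2.19%), with 0 members in NCI-H2228 (0.434%).

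A member was called when its adjusted p (limma on log2(TPM + 1), Benjamini-Hochberg over all genes tested) was under 0.05, and tested when at least 3 of the 6 libraries of the line had 1 TPM or more. In SNU2535, 65 members were tested, 9 rose and 17 fell; 40.0% were called, against 28.7% of all genes tested (10.7% higher, 18.1% lower). In NCI-H3122, 61 were tested, 8 rose and 18 fell; 42.6% were called, against 34.1% of all genes (20.6% higher, 13.4% lower). In NCI-H2228, 65 were tested, 6 rose and 10 fell; 24.6% were called, against 11.2% of all genes (4.8% higher, 6.4% lower). The median log2 difference of the tested members was -0.04, -0.10 and -0.03 in SNU2535, NCI-H3122 and NCI-H2228, beside all-gene medians of -0.02, 0.05 and 0.01. The DMSO and TRI-611 libraries did not overlap for 36, 35 and 29 members, against 43.9%, 48.1% and 31.4% of all genes tested. Every called member had the same sign in each of the 3 batches, in all 3 lines. A call with 3 libraries per group leaves little room for another sign, so this adds no separate support. The 10 lower calls in NCI-H2228 became 6 without DMSO library 1, TRI-611 library 1 or TRI-611 library 2, and 5 without DMSO library 2. In NCI-H3122, 28 rather than 18 members were lower with median-ratio scaling.

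**Figure D1:**
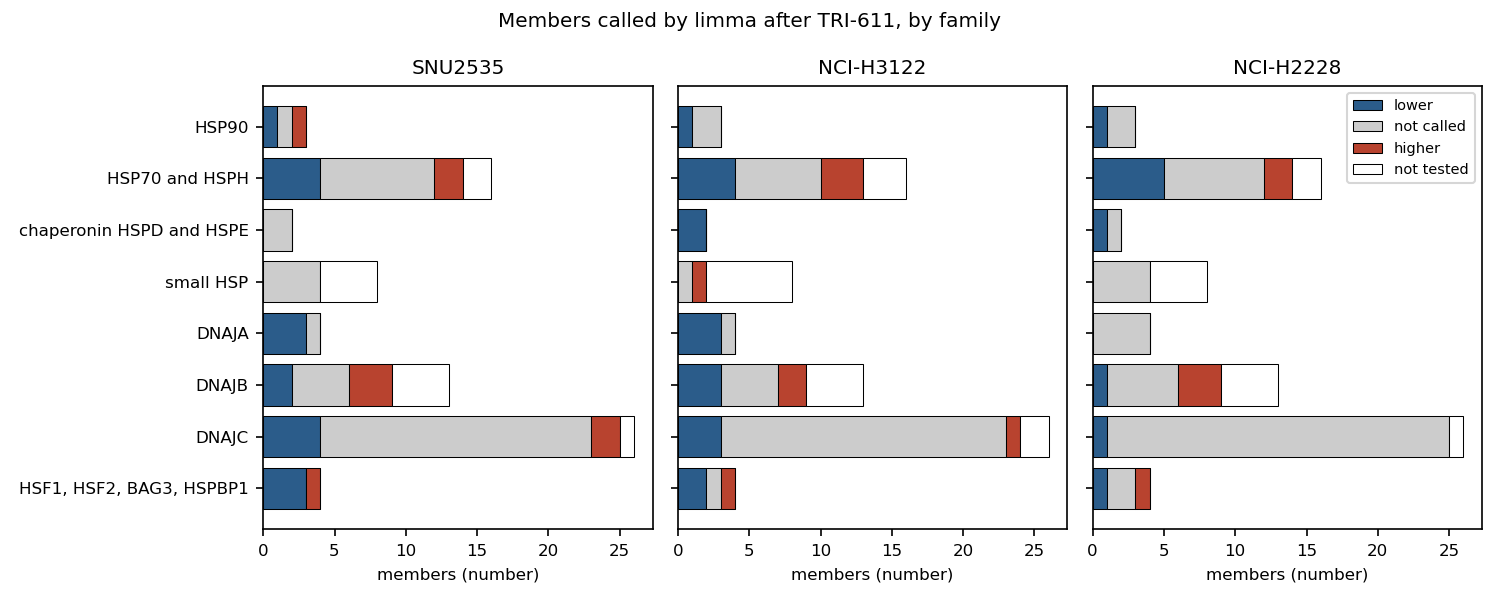
Number of members in each family (horizontal axis) that limma called lower or higher after TRI-611, did not call, or did not test because of low TPM, by line. DNAJA genes were called only as lower, in SNU2535 and NCI-H3122, while the DNAJB family held calls in both directions in all 3 lines.

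The mean share of TPM held by mitochondrially encoded genes was higher after TRI-611 in each line, a difference that was not tested. It went from 8.70% ± 1.18 to 9.13% ± 0.691 in SNU2535, from 11.2% ± 1.52 to 12.5% ± 2.19 in NCI-H3122 and from 9.07% ± 1.23 to 10.8% ± 0.591 in NCI-H2228 (SD, n = 3). In SNU2535 and NCI-H3122 the means differed by less than the SD of either group. The part of this share in the members' changes was tested only by leaving those genes out. With TPM rescaled without these genes, 9 members rose and 16 fell in SNU2535. The counts were 8 and 17 in NCI-H3122, with 6 and 8 in NCI-H2228. Together the 76 members held 0.997% ± 0.0131 of all TPM in SNU2535 with DMSO and 0.923% ± 0.0170 with TRI-611. Their share went from 1.04% ± 0.0221 to 0.963% ± 0.0162 in NCI-H3122 and from 1.29% ± 0.0180 to 1.21% ± 0.0281 in NCI-H2228. The libraries of the 2 treatments did not overlap in any line. Abundant members weigh most in these sums, which therefore do not describe the typical member.

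Of the 60 members tested in all 3 lines, 6 (10%) fell in each and 3 (5%) rose in each, against 4.74% and 2.56% of 13186 genes. Of the 6, DNAJC2, HSPA4 and HSPA14 were not called in NCI-H2228 with no filter or with plain empirical Bayes (adjusted p 0.0525 to 0.0907). A further 25 were called in no line, as were 6426 of the 13186 genes: DNAJA4, DNAJB6, DNAJB12, DNAJB14, HSPA4L, HSPA5, HSPB11 and the 18 DNAJC genes DNAJC1, DNAJC3, DNAJC4, DNAJC7, DNAJC9, DNAJC10, DNAJC14, DNAJC15, DNAJC16, DNAJC17, DNAJC18, DNAJC19, DNAJC21, DNAJC22, DNAJC24, DNAJC25, DNAJC27 and DNAJC30. The 10 members DNAJB3, DNAJB7, DNAJB8, DNAJB13, DNAJC28, HSPA12B, HSPB2, HSPB3, HSPB7 and HSPB9 were too low to test in any line, with a highest library of 1.38 TPM. HSPA12A was tested in SNU2535 alone, HSPA1L in the other lines, and DNAJC12, HSPA7, HSPB6 and HSPB8 in SNU2535 and NCI-H2228.

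Among the regulators, BAG3, the nucleotide exchange factor that links HSP70 to autophagy (ENSG00000151929, chr10:119651370-119677819 in GRCh38, plus strand), fell in all 3 lines. In SNU2535 its TPM was 503, 514 and 507 with DMSO and 367, 375 and 356 with TRI-611, a log2 difference of -0.47 (SE 0.0302, adjusted p = 3.27e-05). NCI-H3122 had 156, 147 and 149 TPM, then 115, 119 and 108 (-0.40, SE 0.0449, adjusted p = 0.000433). NCI-H2228 had 239, 236 and 243 TPM, then 200, 187 and 190 (-0.31, SE 0.0362, adjusted p = 0.00114). No treated library reached any DMSO library of its line, and the DMSO mean was 1.39, 1.32 and 1.24 times the TRI-611 mean.

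HSF2, a heat shock factor that can pair with HSF1, rose in all 3 lines. Its TPM in NCI-H3122 was 12.4, 14.7 and 13.6 with DMSO and 19.5, 24.4 and 19.6 with TRI-611 (log2 0.61, SE 0.0991, adjusted p = 0.00267). In NCI-H2228 it was 12.3, 11.9 and 12.1, then 15.2, 14.4 and 15.1 (0.28, SE 0.0575, adjusted p = 0.0173). In SNU2535 it was 7.23, 5.03 and 5.87, then 8.14, 9.56 and 7.73 (0.44, SE 0.128, adjusted p = 0.0385). The treated libraries lay above all DMSO libraries in each line, but the SNU2535 difference was not called with the replicate block (adjusted p = 0.0680), nor without DMSO library 2 (0.1003), DMSO library 3 (0.0954), TRI-611 library 1 (0.0741), library 2 (0.116) or library 3 (0.0503). The NCI-H2228 call was lost without DMSO library 2 (0.0650), TRI-611 library 1 (0.0742) or library 3 (0.0621).

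HSF1 itself moved little. It stood at 101 ± 5.73 TPM in SNU2535, 91.9 ± 2.91 in NCI-H3122 and 103 ± 4.17 in NCI-H2228 with DMSO, and at 89.5 ± 2.49, 80.5 ± 4.64 and 92.7 ± 4.38 with TRI-611 (SD, n = 3). The decrease passed the test in SNU2535 (log2 -0.18, adjusted p = 0.0268) and NCI-H3122 (-0.19, adjusted p = 0.0216), while NCI-H2228 had -0.15 with an adjusted p of 0.0867. In SNU2535 the call was lost with median-ratio scaling (0.0596) or quantile normalization (0.0766), and without DMSO library 2 (0.0561), TRI-611 library 2 (0.0742) or TRI-611 library 3 (0.0819). In NCI-H3122 it was lost without DMSO library 1 (0.0701), DMSO library 3 (0.0536) or TRI-611 library 2 (0.0515). Exons of HSF1 overlap those of DGAT1. HSPBP1, which releases nucleotide from HSP70, was called lower in SNU2535 (log2 -0.13, adjusted p = 0.0390; 122 ± 3.18 to 112 ± 3.59 TPM), but not with the replicate block (adjusted p = 0.0882), nor without DMSO library 1 (0.0833), 2 (0.105) or 3 (0.0592) or TRI-611 library 1 (0.0985) or 2 (0.113). Its differences in NCI-H3122 and NCI-H2228 were -0.11 and -0.01, the second reversing in sign with quantile normalization (0.03).

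**Figure D2:**
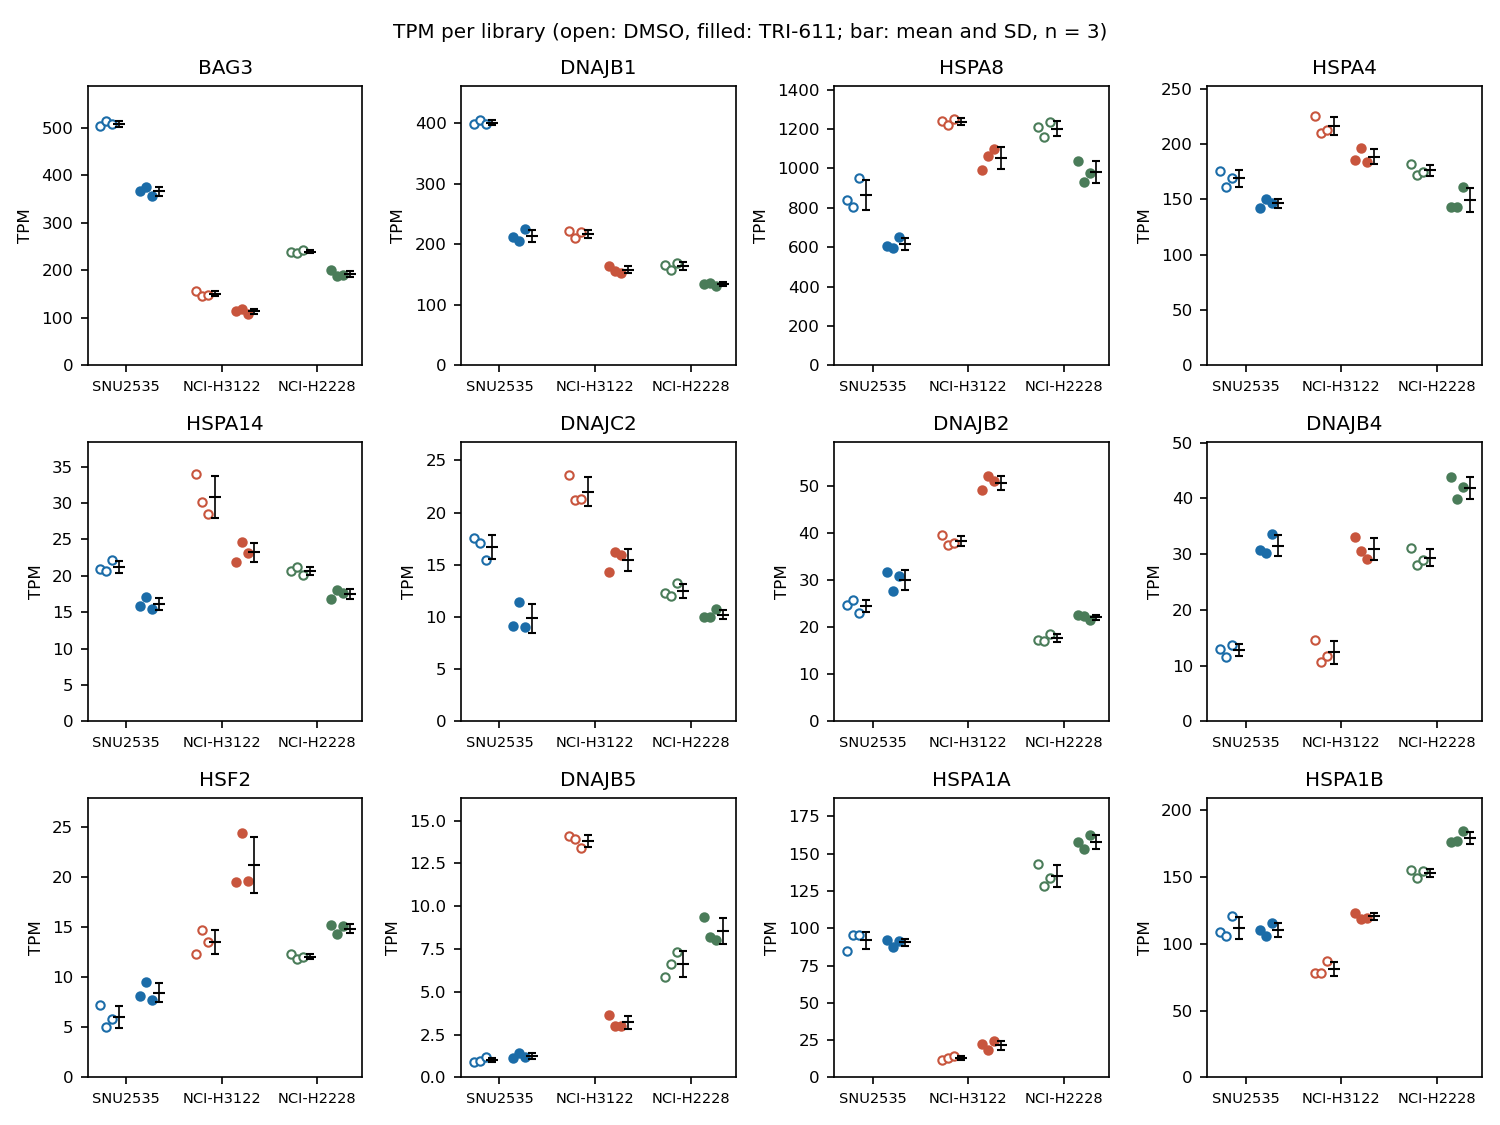
TPM in each library (vertical axes, from 0) of 12 members in the 3 lines, open circles for DMSO and filled circles for TRI-611, with the mean and SD of each group (n = 3). BAG3, DNAJB1, HSPA8, HSPA4, HSPA14 and DNAJC2 were lower with TRI-611 in each line, DNAJB2, DNAJB4 and HSF2 were higher in each, and DNAJB5 fell from 13.8 to 3.22 TPM in NCI-H3122.

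The DNAJB genes encode the HSP40 co-chaperones, and DNAJB1 (ENSG00000132002, chr19:14514770-14529770, minus strand), the main HSP40 of the cytosol and a classic heat shock gene, fell in all 3 lines, most in SNU2535. SNU2535 had 399, 406 and 398 TPM with DMSO and 212, 205 and 225 with TRI-611, a 1.87-fold lower mean (log2 -0.90, SE 0.0388, adjusted p = 5.77e-06). NCI-H3122 had 223, 210 and 220 TPM, then 164, 156 and 153 (-0.46, SE 0.0405, adjusted p = 0.000124). NCI-H2228 had 166, 157 and 169 TPM, then 135, 137 and 131 (-0.29, SE 0.0392, adjusted p = 0.00265). The groups stood apart in each line, and the SNU2535 fall was larger than that in NCI-H3122 (difference of the log2 responses -0.44, SE 0.0569, adjusted p = 0.000202) and in NCI-H2228 (-0.62, SE 0.0551, adjusted p = 1.58e-05). Exons of DNAJB1 overlap those of TECR on the other strand, and without a stated strand setting reads there cannot be told apart.

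DNAJB4, a close relative of DNAJB1 (ENSG00000162616, chr1:77979175-78017964, plus strand), moved the other way. Its TPM went from 12.9, 11.6 and 13.7 to 30.7, 30.2 and 33.7 in SNU2535, 2.48 times the DMSO mean (log2 1.25, SE 0.0725, adjusted p = 2.22e-05). In NCI-H3122 it went from 14.7, 10.7 and 11.8 to 33.1, 30.5 and 29.1, 2.5 times the DMSO mean (1.26, SE 0.108, adjusted p = 0.000139). NCI-H2228 began higher, at 31.0, 28.1 and 28.998, and reached 43.8, 39.9 and 42.1, 1.43 times the DMSO mean (0.50, SE 0.0558, adjusted p = 0.000977). The rise was smaller in NCI-H2228 than in SNU2535 (difference 0.75, SE 0.0936, adjusted p = 0.000251) and in NCI-H3122 (0.77, SE 0.127, adjusted p = 0.00146). DNAJB4 shares exonic positions with GIPC2.

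DNAJB2, a co-chaperone that passes HSP70 clients to the proteasome, rose in all 3 lines: from 24.5 ± 1.32 to 30.1 ± 2.14 TPM in SNU2535 (log2 0.28, adjusted p = 0.0145), from 38.2 ± 1.11 to 50.7 ± 1.48 in NCI-H3122 (0.40, adjusted p = 0.000343) and from 17.7 ± 0.855 to 22.1 ± 0.565 in NCI-H2228 (0.31, adjusted p = 0.00964). DNAJB5 (ENSG00000137094, chr9:34989641-34998900, plus strand), another relative of DNAJB1, fell in NCI-H3122, from 14.1, 13.9 and 13.4 TPM to 3.65, 3.00 and 3.01, a 4.29-fold lower mean (log2 -1.82, SE 0.0831, adjusted p = 6.20e-06). It was the largest change of any member. SNU2535 held it at 0.921, 0.959 and 1.16 TPM with DMSO and 1.15, 1.42 and 1.18 with TRI-611 (log2 0.16, adjusted p = 0.512). NCI-H2228 had 5.88, 6.65 and 7.36 TPM, then 9.39, 8.23 and 8.03, groups that did not overlap although the difference was not called (0.33, adjusted p = 0.0719). The NCI-H3122 response differed from that of SNU2535 by 1.98 (SNU2535 minus NCI-H3122, SE 0.143, adjusted p = 2.65e-06). From that of NCI-H2228 it differed by -2.14 (NCI-H3122 minus NCI-H2228, SE 0.129, adjusted p = 2.71e-07). SNU2535 held DNAJB5 near 1 TPM, where log2(TPM + 1) compresses any fall. The first difference thus has no firm size (1.25 to 2.35 over the alternatives).

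The DNAJB members of the endoplasmic reticulum parted. DNAJB9, an inducible cofactor of BiP, rose in SNU2535 from 14.9, 16.0 and 17.1 TPM to 26.3, 23.8 and 22.5 (log2 0.57, SE 0.0730, adjusted p = 0.000960) and in NCI-H2228 from 49.3 ± 2.03 to 59.3 ± 1.89 (0.26, adjusted p = 0.00929). NCI-H3122 had 9.19 ± 0.167 and 9.69 ± 0.352 TPM (0.07, adjusted p = 0.422). DNAJB11, which serves BiP in the folding of secreted proteins, fell in SNU2535 (41.5 ± 0.997 to 35.1 ± 1.47 TPM; log2 -0.24, adjusted p = 0.00627) and NCI-H3122 (56.7 ± 3.26 to 46.1 ± 1.24; -0.29, adjusted p = 0.00358), with 119 ± 3.67 and 117 ± 2.61 in NCI-H2228 (-0.03, adjusted p = 0.651). In the annotation, 29.5% of the 75-base stretches of DNAJB11 occur in other genes, TBCCD1 among them. Exons of DNAJB9 overlap those of PNPLA8 and THAP5. Of the 4 DNAJA genes, whose proteins deliver clients to HSP70 in the cytosol and mitochondria, 3 fell in SNU2535 and in NCI-H3122. DNAJA1 went from 175 ± 4.39 to 133 ± 6.73 TPM in SNU2535 (-0.40, adjusted p = 0.000463), from 281 ± 3.24 to 218 ± 10.5 in NCI-H3122 (-0.37, adjusted p = 0.000385) and from 387 ± 11.4 to 365 ± 8.14 in NCI-H2228 (-0.08, adjusted p = 0.161). DNAJA2 had -0.26, -0.28 and -0.06 and the mitochondrial DNAJA3 -0.36, -0.14 and -0.15 in SNU2535, NCI-H3122 and NCI-H2228, called in the first 2 lines for both genes. DNAJA3 in NCI-H3122 (adjusted p = 0.0462) was not called with the replicate block (0.0996), nor without DMSO library 1 (0.0799), 2 (0.0788) or 3 (0.168) or TRI-611 library 1 (0.117) or 3 (0.0983). In NCI-H2228 limma called 0 of the 4 DNAJA genes, with 2 at an unadjusted p under 0.05.

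The DNAJC genes are a mixed family whose J-domains serve special sites in the cell. Of those tested, 19 of 25 were not called in SNU2535, 20 of 24 in NCI-H3122 and 24 of 25 in NCI-H2228, where 28.7%, 34.1% and 11.2% of all genes were called. DNAJC2, which recruits HSP70 to nascent chains on the ribosome, was the DNAJC gene called in each line. Its TPM went from 17.6, 17.1 and 15.4 to 9.15, 11.4 and 9.00 in SNU2535 (log2 -0.71, SE 0.0962, adjusted p = 0.00123) and from 23.6, 21.2 and 21.3 to 14.3, 16.2 and 15.9 in NCI-H3122 (-0.48, SE 0.0677, adjusted p = 0.00123). In NCI-H2228 it went from 12.3, 12.0 and 13.2 to 9.96, 9.96 and 10.7 (-0.27, SE 0.0676, adjusted p = 0.0400), a call that was lost without any 1 of the 6 libraries (adjusted p 0.0600 to 0.126). DNAJC6, the auxilin that uncoats clathrin vesicles, fell in SNU2535 from 16.0, 14.3 and 15.6 TPM to 8.74, 9.09 and 8.90 (-0.72, SE 0.0618, adjusted p = 0.000132). It stood at 0.942 ± 0.151 and 1.07 ± 0.00858 TPM in NCI-H3122 and at 3.25 ± 0.272 and 3.29 ± 0.473 in NCI-H2228. DNAJC12, a co-chaperone of aromatic amino acid hydroxylases, rose in SNU2535 from 6.87, 5.83 and 5.70 TPM to 10.0, 10.5 and 11.0 (0.69, SE 0.0842, adjusted p = 0.000721) and had 0.22 in NCI-H2228 (adjusted p = 0.154). DNAJC13, which works in endosomal sorting, rose in NCI-H3122 (25.6 ± 1.15 to 32.6 ± 2.92 TPM; 0.33, adjusted p = 0.00878) and in SNU2535 (0.21, adjusted p = 0.0269). In SNU2535 it was not called under the replicate block (0.0522), nor when DMSO library 1 (0.0611), DMSO library 2 (0.0663), TRI-611 library 2 (0.0813) or TRI-611 library 3 (0.0713) was left out. DNAJC5, the cysteine string protein of secretory vesicles, fell in SNU2535 (-0.27), DNAJC11 of the mitochondrial membrane fell in SNU2535 (-0.25) and NCI-H3122 (-0.14), and DNAJC8 of the spliceosome fell in NCI-H3122 (-0.14). In NCI-H3122 neither was called with the replicate block (0.101 for DNAJC11, 0.0928 for DNAJC8). DNAJC11 there was also lost without DMSO library 1 (0.111), 2 (0.0899) or 3 (0.0552) or TRI-611 library 1 (0.0899) or 2 (0.0653), and DNAJC8 without DMSO library 1 (0.131) or 3 (0.116) or TRI-611 library 1 (0.112), 2 (0.0512) or 3 (0.0761). Exons of DNAJC11 overlap those of THAP3, where 41.6% of its 75-base stretches also occur, so its values are uncertain.

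HSPA8, the constitutive cytosolic HSP70 (ENSG00000109971, chr11:123057489-123063230, minus strand), had 842, 805 and 950 TPM with DMSO and 606, 593 and 653 with TRI-611 in SNU2535 (log2 -0.48, SE 0.0653, adjusted p = 0.00142). NCI-H3122 had 1242, 1218 and 1253 TPM, then 989, 1063 and 1101 (-0.24, SE 0.0426, adjusted p = 0.00416). NCI-H2228 had 1208, 1158 and 1233 TPM, then 1038, 931 and 977 (-0.29, SE 0.0438, adjusted p = 0.00437). All treated libraries lay below all DMSO libraries of their line. Exons of HSPA8 overlap the small nucleolar RNA genes SNORD14C and SNORD14D.

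The pair HSPA1A and HSPA1B, the major stress-inducible HSP70 genes (chr6:31815464-31817946 and chr6:31827735-31830255, plus strand), encodes nearly the same RNA: 71.2% and 73.2% of the 75-base stretches of their transcripts also occur in other genes, each other among them, so the division of reads between them is uncertain and their sum is given first. The sum went from 89.8, 90.9 and 101 TPM to 146, 137 and 144 in NCI-H3122 and from 299, 278 and 289 to 335, 330 and 348 in NCI-H2228. In SNU2535 it was 194, 201 and 216 TPM with DMSO and 202, 193 and 207 with TRI-611, overlapping groups. Fitted separately in NCI-H3122, HSPA1A rose from 13.0 ± 1.17 to 21.7 ± 2.96 TPM (log2 0.69, SE 0.106, adjusted p = 0.00203) and HSPA1B from 80.9 ± 5.17 to 121 ± 2.45 (0.57, SE 0.0498, adjusted p = 0.000120). In NCI-H2228 the differences were 0.22 for HSPA1A (adjusted p = 0.0193) and 0.23 for HSPA1B (adjusted p = 0.00497). The HSPA1A call there was lost without DMSO library 2 (0.0642), DMSO library 3 (0.0502), TRI-611 library 1 (0.0589) or TRI-611 library 3 (0.0666). In SNU2535 both had -0.02 (adjusted p = 0.833 and 0.871), with a sign that turned positive under median-ratio scaling and quantile normalization. The rise of HSPA1B was larger in NCI-H3122 than in SNU2535 (SNU2535 minus NCI-H3122 -0.59, SE 0.0808, adjusted p = 0.000329) and than in NCI-H2228 (0.35, SE 0.0612, adjusted p = 0.00212).

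HSPA6 and HSPA7, a heat-inducible HSP70 gene and its near copy, share 35% and 43.4% of their 75-base stretches with other genes, so their values are uncertain too. HSPA6 had 92.0, 103 and 109 TPM with DMSO and 110, 98.3 and 99.8 with TRI-611 in SNU2535 (log2 0.02, adjusted p = 0.862), and 36.9 ± 1.06 and 29.7 ± 2.47 in NCI-H2228 (-0.31, adjusted p = 0.0186, lost without DMSO library 2 at 0.0672, with all 18 libraries in 1 fit at 0.205, with no filter at 0.0672 and with plain empirical Bayes at 0.0629). HSPA7 was called higher in SNU2535, from 3.60 ± 0.236 to 5.24 ± 0.521 TPM (0.44, adjusted p = 0.0132). Of the HSP70-like exchange factors of the HSPH kind, HSPA4 fell in all 3 lines, from 169 ± 7.59 to 146 ± 4.32 TPM in SNU2535 (-0.20, adjusted p = 0.00900), from 216 ± 8.02 to 189 ± 6.71 in NCI-H3122 (-0.20, adjusted p = 0.00877) and from 176 ± 4.88 to 149 ± 10.7 in NCI-H2228 (-0.24, adjusted p = 0.0224). The NCI-H2228 call was lost without DMSO library 1 (0.0738), DMSO library 2 (0.0514), TRI-611 library 1 (0.0756) or TRI-611 library 2 (0.0651). HSPH1, the heat-inducible exchange factor also known as HSP105, fell from 25.2 ± 2.10 to 19.2 ± 0.508 TPM in SNU2535 (-0.37, adjusted p = 0.00417) and from 54.0 ± 1.25 to 41.9 ± 3.20 in NCI-H3122 (-0.36, adjusted p = 0.00260). It had 59.8 ± 2.94 and 54.1 ± 1.39 TPM in NCI-H2228 (-0.14, adjusted p = 0.0973).

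HSPA14, which works with DNAJC2 on the ribosome, fell as DNAJC2 did in all 3 lines: from 21.2 ± 0.802 to 16.1 ± 0.848 TPM in SNU2535 (log2 -0.38, adjusted p = 0.00210), from 30.8 ± 2.83 to 23.2 ± 1.34 in NCI-H3122 (-0.39, adjusted p = 0.00514) and from 20.6 ± 0.584 to 17.5 ± 0.652 in NCI-H2228 (-0.23, adjusted p = 0.0317). The NCI-H2228 call was lost without DMSO library 1 (0.0873), DMSO library 2 (0.108), TRI-611 library 1 (0.118), TRI-611 library 2 (0.0511) or TRI-611 library 3 (0.0748). In the annotation, 21.1% of the 75-base stretches of HSPA14 occur in a second gene entry of the same name, and its exons overlap CDNF. HSPA5, the BiP chaperone of the endoplasmic reticulum, went from 990 ± 25.7 to 1015 ± 65.7 TPM in SNU2535, from 927 ± 49.1 to 866 ± 27.6 in NCI-H3122 and from 2039 ± 5.68 to 2053 ± 20.9 in NCI-H2228 (SD, n = 3), and was called in no line (log2 0.03, -0.10 and 0.01). The SNU2535 and NCI-H2228 values turned negative with quantile normalization, and median-ratio scaling called NCI-H3122 lower (adjusted p = 0.0161). HSPA9, the mitochondrial HSP70, had -0.13, -0.10 and -0.14 in SNU2535, NCI-H3122 and NCI-H2228. Of these the NCI-H2228 value was called (adjusted p = 0.0439), though not with the replicate block (0.0665), nor without DMSO library 1 (0.126), 2 (0.102) or 3 (0.0629) or TRI-611 library 1 (0.110) or 2 (0.102). HSPA13, of the microsomes, rose in NCI-H3122 (0.23, adjusted p = 0.00914). HSPA2, best known from testis, was called higher in SNU2535 (0.18, adjusted p = 0.0343), a call lost without DMSO library 1 (0.0591), 2 (0.0913) or 3 (0.0926) or TRI-611 library 1 (0.0900) or 3 (0.111).

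**Figure D3:**
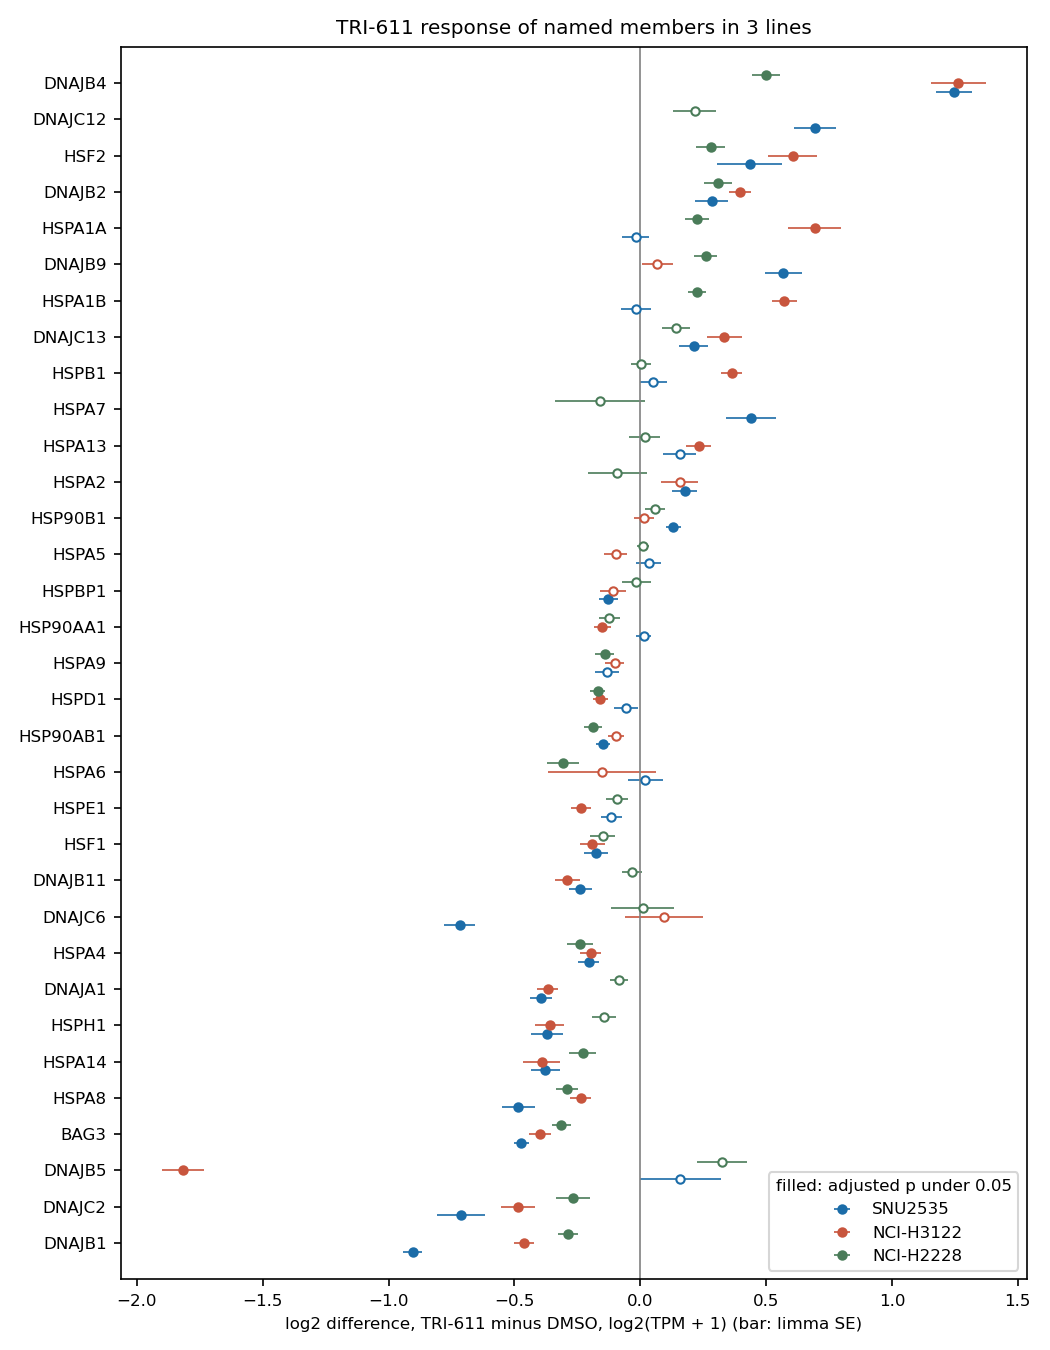
TRI-611 minus DMSO on the log2(TPM + 1) scale (horizontal axis) for 33 named members, coloured by line, with limma's SE and filled points for an adjusted p under 0.05. DNAJB4 stands at 1.25, 1.26 and 0.50 and DNAJB1 at -0.90, -0.46 and -0.29 in SNU2535, NCI-H3122 and NCI-H2228, while DNAJB5 lies far below the rest in NCI-H3122 only.

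HSP90 genes were among the most abundant members and changed little. HSP90AB1, the constitutive cytosolic form, went from 897, 909 and 935 TPM to 835, 821 and 819 in SNU2535 (log2 -0.15, adjusted p = 0.00616) and from 2582, 2517 and 2551 to 2230, 2145 and 2348 in NCI-H2228 (-0.19, adjusted p = 0.0121). In NCI-H3122 it had -0.10 (adjusted p = 0.0541), which was called with median-ratio scaling (0.00248), without mitochondrially encoded genes (0.00826) and with all 18 libraries in 1 fit (0.0210). HSP90AA1, the inducible cytosolic form, was called in NCI-H3122, from 1060, 1000 and 998 TPM to 914, 932 and 908 (-0.15, adjusted p = 0.0114). It had 1477 ± 34.1 and 1491 ± 35.3 TPM in SNU2535 (0.01, adjusted p = 0.791; -0.01 with quantile normalization) and 959 ± 12.1 and 881 ± 48.1 in NCI-H2228 (-0.12, adjusted p = 0.0969). HSP90B1, the endoplasmic form GRP94, was called higher in SNU2535, from 294 ± 5.02 to 322 ± 7.84 TPM (0.13, adjusted p = 0.0163), a call lost without TRI-611 library 3 (0.0512). The other lines had 0.02 and 0.06, and the NCI-H3122 value became -0.04 with median-ratio scaling.

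The mitochondrial chaperonin genes HSPD1 and HSPE1, which encode HSP60 and HSP10 and lie head to head, fell in NCI-H3122: HSPD1 from 1038 ± 11.3 to 929 ± 21.7 TPM (log2 -0.16, adjusted p = 0.00532) and HSPE1 from 335 ± 10.3 to 285 ± 10.8 (-0.23, adjusted p = 0.00336). HSPD1 also fell in NCI-H2228, from 466 ± 4.08 to 415 ± 7.46 (-0.17, adjusted p = 0.00772). HSPE1 had -0.11 and -0.09 in SNU2535 and NCI-H2228, and 43.9% of its 75-base stretches occur in other genes. Among the small heat shock proteins, HSPB1 (HSP27) rose in NCI-H3122, from 354, 351 and 370 TPM to 483, 462 and 440 (0.36, SE 0.0419, adjusted p = 0.000481). SNU2535 had 1464, 1601 and 1502 TPM, then 1684, 1486 and 1569 (0.05, adjusted p = 0.511), and NCI-H2228 had 462 ± 5.91 and 463 ± 22.4 (0.00, adjusted p = 0.967). The NCI-H3122 response was larger than that in SNU2535 (SNU2535 minus NCI-H3122 -0.31, SE 0.0706, adjusted p = 0.00814; 0.131 with median-ratio scaling) and in NCI-H2228 (0.36, SE 0.0588, adjusted p = 0.00121). HSPB8, the partner of BAG3, had 0.27 in SNU2535 (adjusted p = 0.0689) and 0.00 in NCI-H2228 (adjusted p = 0.979).

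Genes that work beside the members were counted from lists, which were chosen with earlier results of these data known. For comparison, 18.1%, 13.4% and 6.4% of all genes fell in SNU2535, NCI-H3122 and NCI-H2228 while 10.7%, 20.6% and 4.8% rose. Of 15 co-chaperones of HSP90, 7 fell in SNU2535 and 2 in NCI-H2228, while in NCI-H3122 7 fell and 1 rose. The medians were -0.12, -0.14 and -0.04 in SNU2535, NCI-H3122 and NCI-H2228, beside -0.02, 0.05 and 0.01 over all genes. FKBP4, an immunophilin of the HSP90 cycle, had -0.34, -0.45 and -0.21 and STIP1, the adaptor between HSP70 and HSP90, -0.32, -0.27 and -0.16, each called in all 3 lines. TTC4 (-0.48) and CHORDC1 (-0.42) fell in SNU2535, and CHORDC1 (-0.37) and NUDC (-0.29) in NCI-H3122. Of 14 genes for HSP70 nucleotide exchange and quality control, 4 fell and 2 rose in SNU2535, 2 fell in NCI-H3122 and 3 fell in NCI-H2228 (medians 0.04, 0.01 and -0.05). GRPEL1, the exchange factor of the mitochondrial HSP70, went from 71.3 ± 2.06 to 44.4 ± 1.92 TPM in SNU2535, from 71.4 ± 0.370 to 43.3 ± 1.89 in NCI-H3122 and from 67.9 ± 3.87 to 48.5 ± 1.71 in NCI-H2228 (-0.67, -0.71 and -0.48). BAG5 (-0.58) and GRPEL2 (-0.55) also fell in SNU2535, GRPEL2 (-0.28) and SGTA (-0.25) in NCI-H2228, and SGTA (-0.21) in NCI-H3122. SGTA was lower in SNU2535 too, at 122 ± 4.87 TPM with DMSO and 96.0 ± 2.73 with TRI-611.

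The cytosolic chaperonin CCT and its partner prefoldin fold actin and tubulin. Of their 14 subunit genes, 6 fell in each line and PFDN5 rose in SNU2535 (0.17), with medians of -0.07, -0.10 and -0.15, where 18.1%, 13.4% and 6.4% of all genes fell. CCT6A had -0.39, -0.29 and -0.29 and CCT2 -0.42, -0.36 and -0.22 in SNU2535, NCI-H3122 and NCI-H2228. PFDN2 had -0.41 and -0.72 in the first 2. TCP1 fell by 0.23 in NCI-H2228. Of 14 tested genes of a list of other heat-inducible genes, 4 rose and 6 fell in SNU2535, 3 rose and 6 fell in NCI-H3122, and 2 rose and 3 fell in NCI-H2228 (medians -0.09, -0.01 and -0.04). IER5, a cofactor of HSF1, fell in each (-0.73, -0.46 and -0.47). Clusterin (CLU), a secreted chaperone, rose in SNU2535 (0.47) and NCI-H3122 (0.64), and HMOX1, the heme oxygenase of the oxidative stress response, in NCI-H3122 (0.76) and NCI-H2228 (0.53). FKBP4, TCP1 and CHORDC1 stand in this list too and are the same values as above.

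Of 16 genes of endoplasmic reticulum stress, 5 rose and 2 fell in SNU2535, 3 rose and 3 fell in NCI-H3122, and 2 rose and 1 fell in NCI-H2228 (medians 0.07, 0.06 and 0.08). SDF2L1, a cofactor of BiP, fell in each line (-0.35, -0.26 and -0.28), and the stress factor ATF4 fell in SNU2535 (-0.45). EDEM1, which extracts misfolded glycoproteins, rose in SNU2535 (0.35) and fell in NCI-H3122 (-0.34). HERPUD1 (0.45) and DDIT3 (0.35) rose in NCI-H2228, and ATF3 (0.56) and DDIT3 (0.55) in NCI-H3122. In a list of 7 other heat shock factors and modifiers of HSF1, SIRT1, the deacetylase that prolongs HSF1 binding, rose in NCI-H3122 (0.65) and NCI-H2228 (0.40), and the acetylase EP300 rose in NCI-H3122 (0.26). The list's medians were 0.03, 0.24 and 0.07 over 6, 5 and 6 tested genes.

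The response itself was compared between lines as an interaction, over members tested in both. SNU2535 minus NCI-H3122 gave 3 higher and 8 lower of 60 members, against 20.1% of all genes called (3.71% higher, 16.4% lower). SNU2535 minus NCI-H2228 gave 4 higher and 7 lower of 64, against 10.6% (2.74% and 7.83%), and NCI-H3122 minus NCI-H2228 gave 4 and 4 of 61, against 14.3% (8.99% and 5.34%). Scaling changed these splits: median-ratio scaling gave 12 higher and 5 lower, 7 and 4, and 3 and 13, and quantile normalization 6 and 9, 6 and 5, and 4 and 7. Over all genes, the median difference of SNU2535 minus NCI-H3122 was -0.09, and 0.02 after median-ratio scaling, so members near these values have no firm direction. Calls of SNU2535 minus NCI-H2228 also rested on single libraries. The 4 higher became 1 without SNU2535 DMSO library 2 or NCI-H2228 DMSO library 1, and 2 without SNU2535 DMSO library 1, any SNU2535 TRI-611 library, NCI-H2228 DMSO library 2 or NCI-H2228 TRI-611 library 2 or 3. The 7 lower became 3 without SNU2535 TRI-611 library 1, NCI-H2228 DMSO library 2 or NCI-H2228 TRI-611 library 1, and 4 without SNU2535 DMSO library 2 or 3, NCI-H2228 DMSO library 1 or NCI-H2228 TRI-611 library 3.

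Beyond DNAJB1, DNAJB4, DNAJB5, HSPA1B and HSPB1, the response of DNAJC6 in SNU2535 lay below that in NCI-H3122 (-0.81, SE 0.118, adjusted p = 0.000499) and NCI-H2228 (-0.73, SE 0.126, adjusted p = 0.00275). NCI-H3122 held DNAJC6 near 1 TPM, so the first difference has no firm size (-0.95 to -0.58 over the alternatives). HSPA1A differed between SNU2535 and NCI-H3122 by -0.71 (SE 0.126, adjusted p = 0.00207). DNAJB9 rose more in SNU2535 than in NCI-H3122 (0.50, SE 0.0921, adjusted p = 0.00237). Against NCI-H2228 its difference of 0.31 (adjusted p = 0.0415) was not called with the replicate block (0.0514) or without 9 of the 12 libraries (0.0520 to 0.104). DNAJA1 fell more in SNU2535 (-0.31, SE 0.0563, adjusted p = 0.00364) and in NCI-H3122 (-0.28, SE 0.0531, adjusted p = 0.00316) than in NCI-H2228. DNAJA4 had -0.25 in SNU2535 and 0.22 in NCI-H3122, neither called, but the difference of -0.46 was (SE 0.119, adjusted p = 0.0162).

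Levels were also compared between the untreated lines. The most abundant members, by mean TPM in DMSO, were HSPB1 (1522 ± 70.6) and HSP90AA1 (1477 ± 34.1) in SNU2535, HSP90AB1 (1910 ± 41.7) and HSPA8 (1238 ± 17.9) in NCI-H3122, and HSP90AB1 (2550 ± 32.7) and HSPA5 (2039 ± 5.68) in NCI-H2228. SNU2535 was the line of high BAG3 and DNAJB1, NCI-H3122 that of low inducible HSP70 and high chaperonin, and NCI-H2228 that of high HSPA5 and HSPA9, the HSP70 genes of the endoplasmic reticulum and the mitochondria. These comparisons used the 9 DMSO libraries and 66 tested members.

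**Figure D4:**
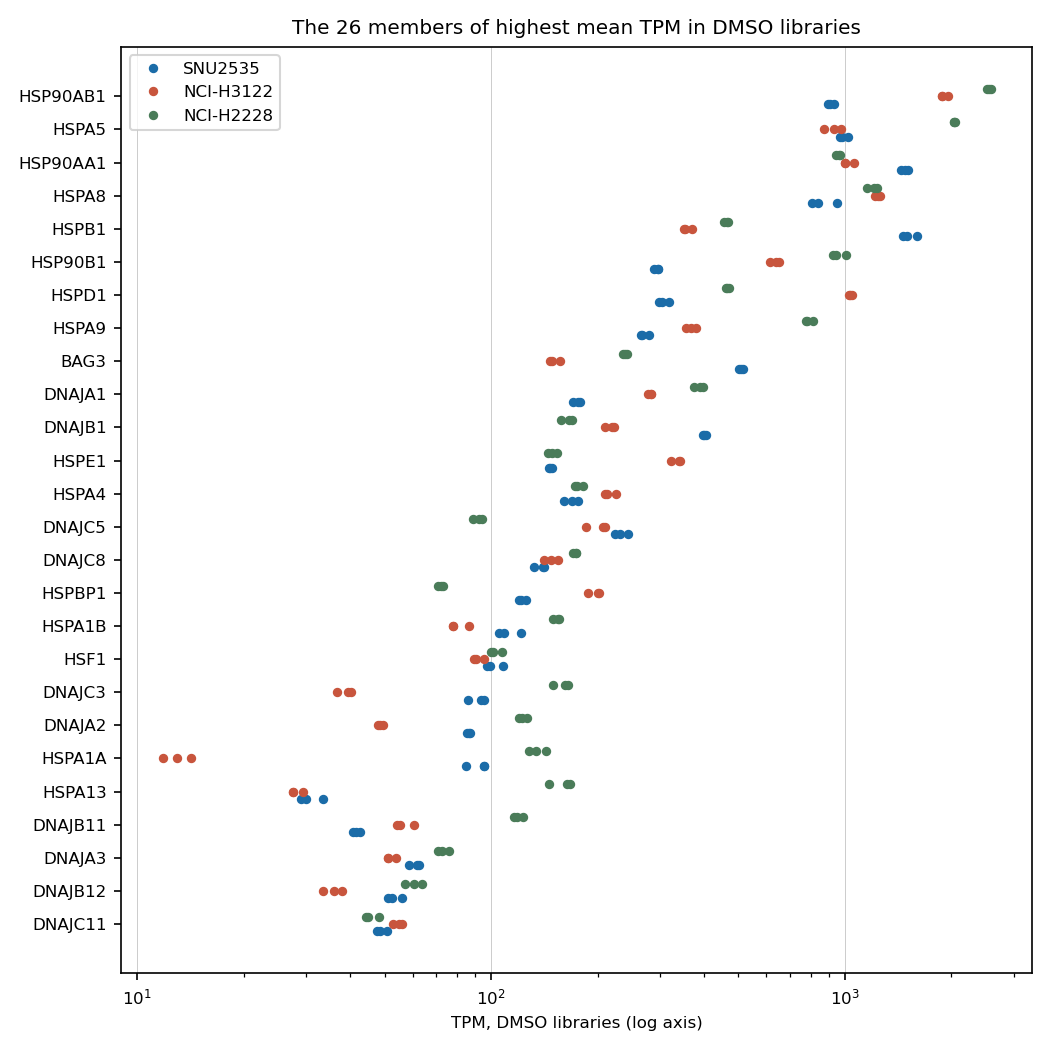
TPM in the DMSO libraries (log axis) of the 26 members with the highest mean over the 9 libraries, 3 points for each line. HSPB1 reaches 1522 TPM in SNU2535 against 358 and 462 in NCI-H3122 and NCI-H2228, and HSP90AB1 runs from 913 TPM in SNU2535 to 2550 in NCI-H2228.

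SNU2535 minus NCI-H3122 gave 33 higher and 26 lower members, against 76.1% of all genes called (45.4% higher, 30.7% lower). SNU2535 minus NCI-H2228 gave 19 and 38, against 75% (32.4% and 42.6%), and NCI-H3122 minus NCI-H2228 gave 17 and 43, against 79.3% (30% and 49.3%). Over all genes the median differences were 0.16, -0.11 and -0.25, which median-ratio scaling moved to 0.01, -0.03 and -0.02 and quantile normalization to -0.08, -0.01 and 0.09. The splits then were 26 higher and 28 lower, 23 and 36, and 24 and 34 with median-ratio scaling, and 25 and 30, 22 and 37, and 22 and 34 with quantile normalization. Calls near these medians therefore depend on the scaling.

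Inducible HSP70 genes separated NCI-H3122 from the other lines. HSPA6 stood at 92.0, 103 and 109 TPM in SNU2535, 35.7, 37.5 and 37.5 in NCI-H2228 and 2.67, 2.22 and 2.83 in NCI-H3122, a log2 difference of 4.84 between SNU2535 and NCI-H3122 (SE 0.0778, adjusted p = 2.61e-11) and of -3.41 between NCI-H3122 and NCI-H2228 (adjusted p = 1.89e-10). HSPA1A was at 91.9 ± 5.99 TPM in SNU2535, 13.0 ± 1.17 in NCI-H3122 and 135 ± 7.57 in NCI-H2228 (log2 2.73 and -3.29 for the same pairs), while HSPA1B was at 112 ± 8.19, 80.9 ± 5.17 and 153 ± 3.16. Their ratio therefore differed between the lines, and how reads of their shared sequence were assigned is not given in the sources used here. The sum of HSPA1A and HSPA1B kept the order, with 204 ± 11.6, 93.9 ± 6.21 and 288 ± 10.3 TPM. BAG3 was at 508 ± 5.56, 151 ± 4.89 and 239 ± 3.16 TPM in SNU2535, NCI-H3122 and NCI-H2228, with DNAJB1 at 401 ± 4.07, 218 ± 6.45 and 164 ± 6.16. All pairs of lines differed for both genes, by 1.75, 1.08 and -0.66 for BAG3 and 0.88, 1.28 and 0.41 for DNAJB1 (SNU2535 minus NCI-H3122, SNU2535 minus NCI-H2228, NCI-H3122 minus NCI-H2228; largest adjusted p = 2.26e-06).

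The small heat shock proteins, holdases that keep unfolded proteins from clumping, also differed widely. HSPB8 was at 6.51 ± 0.240 TPM in SNU2535, 0.447 ± 0.273 in NCI-H3122 and 30.7 ± 0.839 in NCI-H2228, and HSPB6, a muscle-rich form, at 1.04 ± 0.429, 0.299 ± 0.120 and 8.04 ± 0.155. HSPB8 differed by 2.39 between SNU2535 and NCI-H3122 and by -4.47 between NCI-H3122 and NCI-H2228 (adjusted p = 5.34e-08 and 5.20e-10). HSPB1 was 4.25 times as high in SNU2535 as in NCI-H3122 and 3.3 times as high as in NCI-H2228 (log2 2.08 and 1.72, adjusted p = 3.70e-11 and 1.99e-10).

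Chaperonin genes had their highest level in NCI-H3122. HSPD1 stood at 307 ± 10.4, 1038 ± 11.3 and 466 ± 4.08 TPM in SNU2535, NCI-H3122 and NCI-H2228, with HSPE1 at 147 ± 1.63, 335 ± 10.3 and 149 ± 3.98. HSPD1 differed by -1.75 between SNU2535 and NCI-H3122 and by 1.15 between NCI-H3122 and NCI-H2228 (adjusted p = 2.12e-11 and 2.35e-10), HSPE1 by -1.18 and 1.16. HSPE1 did not differ beyond the test between SNU2535 and NCI-H2228. Several members of the endoplasmic reticulum, chosen after their values were seen, had their highest level in NCI-H2228: HSP90B1 at 294 ± 5.02, 635 ± 19.9 and 959 ± 42.5 TPM, HSPA5 at 990 ± 25.7, 927 ± 49.1 and 2039 ± 5.68, DNAJB9 at 16.0 ± 1.07, 9.19 ± 0.167 and 49.3 ± 2.03, and DNAJC10, a disulfide reductase, at 10.3 ± 0.264, 15.6 ± 0.299 and 42.4 ± 1.47. DNAJB14, a J-protein of the same membrane system, was higher in SNU2535 (19.6 TPM) than in NCI-H2228 (14.3 TPM). HSPA13 at 159 ± 11.1 TPM in NCI-H2228 was 5.14 and 5.63 times its SNU2535 and NCI-H3122 levels, and HSPA9 at 792 ± 20.4 TPM was 2.93 and 2.15 times. HSPH1 was at 25.2 ± 2.10 TPM in SNU2535, below NCI-H3122 (log2 -1.07) and NCI-H2228 (-1.22).

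Several J-domain genes were near silent in 1 line. DNAJC12 was listed at 0.105, 0 and 0 TPM in NCI-H3122, against 6.13 ± 0.642 in SNU2535 and 23.2 ± 2.60 in NCI-H2228 (log2 differences 2.78 and -4.54). DNAJC6 was at 15.3 ± 0.873 TPM in SNU2535, 0.942 ± 0.151 in NCI-H3122 and 3.25 ± 0.272 in NCI-H2228, so its fall after TRI-611 was seen where its level was highest. DNAJB5 was at 1.01 ± 0.131, 13.8 ± 0.371 and 6.63 ± 0.737 TPM, highest where it fell (log2 -2.88 for SNU2535 minus NCI-H3122, -1.92 for SNU2535 minus NCI-H2228). DNAJA4, a cytosolic co-chaperone, was at 7.89 ± 0.0828, 15.8 ± 1.06 and 1.51 ± 0.267 TPM (2.75 for NCI-H3122 minus NCI-H2228), and HSPA2 at 32.7 ± 0.689, 7.22 ± 0.529 and 3.58 ± 0.273 (2.88 for SNU2535 minus NCI-H2228). DNAJC30, of the mitochondria, was 3.69 times as high in SNU2535 as in NCI-H2228 (log2 1.78). DNAJC21, which acts in ribosome assembly, was 2.86 times as high in NCI-H3122 as in NCI-H2228 (1.48) and HSPBP1 2.73 times (1.44). HSF1 stayed close, at 101 ± 5.73, 91.9 ± 2.91 and 103 ± 4.17 TPM, and HSF2 was lowest in SNU2535, at 6.04 ± 1.11 against 13.5 ± 1.18 and 12.1 ± 0.241 TPM.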

How the data were processed

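RNA-seq libraries of 18 samples (3 lines, 2 treatments, 3 libraries each) were given as 1 table. Its values are TPM as deposited by the authors. The submitters' processing notes name the build GRCh38 and the tools DESeq2, featureCounts, Subread 1.5.2, fastp 0.23.1 and STAR 2.5.2b. Not given in the sources used here are the annotation, the strand setting, the use of molecular identifiers and how TPM was derived. Read depth is unknown, so precision rests on the spread between libraries.

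Genes with at least 1 TPM in 3 or more libraries of a comparison (in each line, for differences of responses) were fitted in limma 3.58.1 (R 4.3.3) on log2(TPM + 1), with an intensity trend and robust empirical Bayes. Responses were fitted within a line, differences of responses as interactions, and DMSO levels over the 9 DMSO libraries. Tests were two-sided, and adjusted p-values (Benjamini-Hochberg over all genes tested) were called under 0.05. A fold change on this scale understates that of low genes, and ratios of mean TPM carry no pseudocount. The scripts were tested on simulated data. Overlapping exons and shared 75-base stretches came from GENCODE release 29, promoters from RefSeq (GRCh38.p14). Protein sequences were not used here.

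The text names the factors, BAG3, HSPBP1 and the main HSP genes always; in each line the 8 largest called rises and falls; up to 4 differences of responses and 5 of DMSO levels each way for a pair of lines; members called alike in all 3 lines; members below the filter; and up to 3 called genes of a list. Some list genes that this rule would name are not reported here. Further genes were added after their values were seen (DNAJA2, DNAJA3, DNAJC5, DNAJC8, DNAJC11, HSPB8, STIP1 and others). The members and lists were chosen with earlier results of these data known.

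The pairing of libraries comes from the batch label that they share. Over genes, deviations from the group means of same-numbered DMSO and TRI-611 libraries had, for batches 1 to 3, r of -0.0228, 0.0437 and 0.00966 (SNU2535), -0.0865, -0.029 and 0.0152 (NCI-H3122) and 0.101, 0.00343 and 0.083 (NCI-H2228). Alternatives were pseudocounts of 0.1 and 5, no filter and a filter of 5 TPM, median-ratio scaling, quantile normalization, TPM without mitochondrially encoded genes, all 18 libraries in 1 fit, plain empirical Bayes, the replicate block, and each library left out. Figures were drawn with matplotlib 3.10.9.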

Additional observations from a re-analysis of the deposited data

Results flagged for a closer look

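The response to TRI-611 differed between lines in 30 comparisons of a member between a pair of lines. The test was limma's interaction with Benjamini-Hochberg adjustment over all genes. Of the members tested, 18.3% were called for SNU2535 minus NCI-H3122, against 20.1% of all genes. For SNU2535 minus NCI-H2228 it was 17.2% against 10.6%, and for NCI-H3122 minus NCI-H2228 13.1% against 14.3%. Values are differences of log2 responses. For DNAJB5 and DNAJC6 the limit given above for a line near 1 TPM applies. For SNU2535 minus NCI-H3122 they were 1.98 for DNAJB5, 0.50 for DNAJB9 and 0.16 for HSP90AA1 on the higher side, and -0.81 for DNAJC6, -0.71 for HSPA1A, -0.59 for HSPA1B, -0.46 for DNAJA4, -0.44 for DNAJB1, -0.31 for HSPB1, -0.30 for DNAJC5 and -0.22 for DNAJA3 on the lower side. HSP90AA1 was not called without SNU2535 DMSO library 2 (adjusted p = 0.0559), SNU2535 TRI-611 library 3 (0.0551) or NCI-H3122 DMSO library 1 (0.0511), or with quantile normalization (0.209). Median-ratio scaling ended the calls of HSPB1 (0.131), DNAJC5 (0.0728) and DNAJA3 (0.226), and DNAJA3 was also lost without 7 of the 12 libraries (at most 0.0887).

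For SNU2535 minus NCI-H2228 the differences were 0.75 for DNAJB4, 0.60 for HSPA7, 0.48 for DNAJC12 and 0.31 for DNAJB9, and -0.73 for DNAJC6, -0.62 for DNAJB1, -0.45 for DNAJC2, -0.31 for DNAJA1, -0.24 for HSPA1B, -0.21 for DNAJB11 and -0.16 for BAG3. Those of HSPA7, DNAJC12, DNAJB9 and DNAJC2 were lost without 10, 5, 9 and 9 of the 12 libraries, with adjusted p of at most 0.0911, 0.0640, 0.104 and 0.0770. Those of HSPA1B, DNAJB11 and BAG3 were lost without 10, 9 and 9 (at most 0.103, 0.0905 and 0.0930) and with median-ratio scaling (0.143, 0.0657 and 0.252), and that of BAG3 with the replicate block (0.0569).

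For NCI-H3122 minus NCI-H2228 they were 0.77 for DNAJB4, 0.47 for HSPA1A, 0.36 for HSPB1 and 0.35 for HSPA1B, and -2.14 for DNAJB5, -0.28 for DNAJA1, -0.26 for DNAJB11 and -0.22 for DNAJA2. The HSPA1A and DNAJA2 calls were lost without 6 and 7 of the 12 libraries (adjusted p of at most 0.0603 and 0.0677), and that of HSPA1A with median-ratio scaling (0.0551) or quantile normalization (0.120).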

How the results depend on the processing

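Most values held: outside the omission of single libraries, 1372 values of named or called members kept direction and call, 90 lost a call, 12 gained one and 11 turned sign; without 1 library the numbers were 995, 153, 2 and 14. No called difference turned sign. The cause of the changes below was not tested.

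Median-ratio scaling gave 28 lower in NCI-H3122, 12 higher and 5 lower for SNU2535 minus NCI-H3122, 7 and 4 for SNU2535 minus NCI-H2228 and 13 lower for NCI-H3122 minus NCI-H2228. Quantile normalization gave 6 higher for SNU2535 minus NCI-H3122 and 7 lower for NCI-H3122 minus NCI-H2228. Plain empirical Bayes gave 5 higher in SNU2535, 4 lower in NCI-H2228 and 4 lower for SNU2535 minus NCI-H2228. With no filter, where more genes were tested, NCI-H2228 had 5 lower and SNU2535 minus NCI-H2228 had 2 higher and 3 lower. A pseudocount of 5 gave 2 higher there.

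Without 1 library, counts ranged from 5 to 8 lower in NCI-H2228, and from 1 to 4 higher and 3 to 7 lower for SNU2535 minus NCI-H2228. With the batch as replicate block, the higher and lower members numbered 7 and 16 (SNU2535), 8 and 15 (NCI-H3122) and 6 and 9 (NCI-H2228), and the block changed no other call of a response, or of a difference of responses, than those given with the results.

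Beyond the calls given with the results, all 18 libraries in 1 fit ended those of HSF2 (0.0951) and HSPA1A (0.0772) in NCI-H2228 and HSPA2 in SNU2535 (0.0721), and added HSPA9 (0.0279) and HSPE1 (0.0466) in SNU2535 and HSP90AA1 in NCI-H2228 (0.0280). Median-ratio scaling added HSPA9 (0.00577) and HSPBP1 (0.0216) in NCI-H3122 and HSPH1 in NCI-H2228 (0.0493). A filter of 5 TPM added HSPA9 in SNU2535 (0.0449) and HSF1 in NCI-H2228 (0.0477). Plain empirical Bayes ended, among others, the calls of HSPD1 (0.0693) and HSP90AB1 (0.0908) in NCI-H2228. It also ended those of HSP90AA1 in NCI-H3122 (0.0535) and HSP90B1 in SNU2535 (0.0727).

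Values that turned sign were all uncalled. With quantile normalization these were -0.00957 for HSP90AA1, 0.0313 for HSPA1A, 0.0292 for HSPA1B and -0.0354 for HSPA5 in SNU2535, and -0.0352 for HSPA5 and 0.0289 for HSPBP1 in NCI-H2228. With median-ratio scaling they were 0.0116 for HSPA1A and 0.014 for HSPA1B in SNU2535, -0.0421 for HSP90B1 in NCI-H3122 and -0.000843 for HSPB1 in NCI-H2228, and without mitochondrially encoded genes 0.013 for HSPBP1 in NCI-H2228. Without 1 library, SNU2535 ranged from -0.00580 to 0.0294 for HSP90AA1, -0.0733 to 0.00913 for HSPA1A, -0.056 to 0.0421 for HSPA1B and -0.00355 to 0.0871 for HSPA5. HSP90B1 ranged from -0.00932 to 0.0463 in NCI-H3122, and in NCI-H2228 HSPB1 ranged from -0.0215 to 0.0442 and HSPBP1 from -0.0683 to 0.0427.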
